A study of Mus musculus with 6 samples.

Results

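Macrophages and dendritic cells were read in the uterine transcriptome through a list of 40 gene symbols that names surface receptors of myeloid cells, receptors for the constant region of antibodies, subunits of the phagocyte NADPH oxidase and genes of dendritic cells. Each symbol was looked up in a table of 23420 genes, and 39 of the 40 were found. The remaining symbol, *Spi1*, stands in the table under its older name *Sfpi1*, and its values are given apart from the 39.

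Uteri were taken on PPD 4.5, the pseudopregnancy day at which a uterus is ready for an embryo. Pseudopregnancy is a state brought on by mating with vasectomized males, so that no embryo was present. The study compared control *Foxo1f/f* females, whose *Foxo1* alleles are floxed and intact, with *PgrCre/+ Foxo1f/f* females (*Foxo1d/d*), in which Cre recombinase made from the *Pgr* locus deletes *Foxo1*. All mice were C57BL/6J and 8 weeks old, and the study's methods give their feed as an irradiated diet free of soy protein. Each genotype gave 3 libraries, each from the pooled RNA of 2 females. Whole uteri were used, so epithelium, stroma, muscle, vessels, leukocytes and any blood left in the tissue contribute to every value. Cre made from the *Pgr* locus acts in epithelium and stroma and also outside the uterus, in the ovary and the pituitary, and the *Foxo1d/d* mice alone carry the altered *Pgr* allele. The deposited values are the authors' mean raw counts over the 3 libraries of a genotype, which carry no spread between pools, and no test between genotypes was run. The mean total was 26125014 counts a library in *Foxo1f/f* and 27257963 in *Foxo1d/d*.

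Macrophages take up dying cells, microbes and debris through scavenger receptors, lectins and Fc receptors, and many of them renew from blood monocytes. Dendritic cells carry antigen to T cells, and their conventional and plasmacytoid types depend on FLT3 signalling. Both kinds of cell are resident in the mouse endometrium and myometrium, where they are known for a part in tissue remodelling and in preparing the uterus for implantation.

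*Foxo1*, the deleted gene, averaged 3941 counts a library in the control and 1456 in the knockout group. On the log2 scale its ratio, knockout over control, was -1.50 (95% counting interval -1.55 to -1.45), a difference in the direction of the genotype labels. Counts over the whole gene include transcripts that lack only the floxed exon, so the remaining counts give no share of undeleted cells. Ratios here and below compare mean counts, raised by a pseudocount of 1 and scaled by the total counts of the genotype. Each interval is exact (Clopper-Pearson), comes from the counts summed over the 3 libraries and covers counting error only, not the differences between mice.

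The list was present in both genotypes. Of the 39 genes, 37 averaged at least 10 counts over the genotypes, and the same 37 reached 10 in each genotype on its own. The scavenger receptor gene *Marco*, with mean counts of 1 and 4, and the complement receptor gene *Vsig4*, with 2.67 and 5.67, lay under that minimum. *Marco* was 3.83-fold higher in *Foxo1d/d* by these counts, with a counting interval of 1.03 to 21.2, and *Vsig4* 2.04-fold, with an interval of 0.833 to 5.45, so neither value has much precision. Defining macrophage genes outside the list were well covered, with mean counts of 2487 and 2895 for *Csf1r*, the receptor of macrophage colony-stimulating factor, and 1106 and 1392 for *Adgre1*, which encodes F4/80. The dendritic cell integrin gene *Itgax* and the transcription factor gene *Irf8* were also counted in both genotypes. Several genes of the list, among them *Ptprc*, *Laptm5*, *Cd52* and *Cd53*, are shared by most leukocytes and are not particular to macrophages or dendritic cells.

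The genes stood higher in *Foxo1d/d* uteri as a group, mostly by small amounts. Of the 37 measured genes, 36 had a ratio above 0, against 55.1% of the 15696 genes in the table that averaged at least 10 counts. *Mertk* alone lay below 0. The median log2 ratio was 0.35, which is 27.8% more in *Foxo1d/d*, while the median of all genes was 0.02. In this whole tissue, more cells of a type and more RNA per cell cannot be told apart.

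Set against a threshold of 1.2-fold, 27 of the 37 genes (73.0%) were higher in *Foxo1d/d* and 0 were lower, where 15.7% of all genes were higher and 11.7% lower. At 1.5-fold, 8 of the 37 (21.6%) were higher and 0 lower, against 5.43% and 3.51% of all genes. With ratios centred on the median gene, 5 of the 37 were over 1.5-fold higher, against 5.06% of all genes. The counting interval lay above 0 for 33 of the 37 genes and below 0 for 1, against 36.4% and 27.1% of all genes. Genes with few counts pass a fold threshold more often, so the shares were also taken among genes that averaged at least 100 counts. There 24 of 34 genes (70.6%) were over 1.2-fold higher, beside 12.2% of 12950 genes. The group therefore differed from the bulk of the transcriptome in a broad shift of modest size, more than in a few large ratios.

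**Figure D1:**
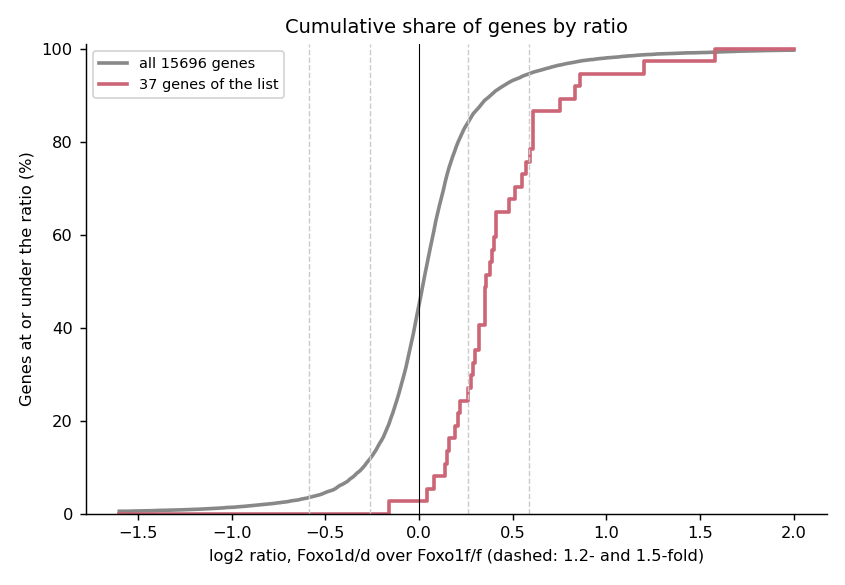
Cumulative share of genes, in percent, by log2 ratio, knockout over control, for the 37 measured genes of the list and for the 15696 genes that averaged at least 10 counts. The curve of the list lies to the right of the curve of all genes, with a median of 0.35 beside 0.02, and dashed lines mark 1.2-fold and 1.5-fold.

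The 4 highest levels of the list belonged to adaptor genes and to genes that most leukocytes share. In CPM (the mean count as a share of all counts of the genotype, on the usual CPM scale) per kilobase of transcript, the scale of each gene level given here, the adaptor gene *Tyrobp* had the highest level of the list, 76.3 in *Foxo1f/f* and 88.8 in *Foxo1d/d*. *Cd52*, which encodes a small surface glycoprotein of leukocytes, had levels of 60.7 and 80.5, and *Fcer1g*, the signalling chain shared by several Fc receptors, 49.0 and 59.4. *Laptm5*, a lysosomal membrane protein gene of blood cells, followed with 33.5 and 42.6. *Tyrobp* and *Fcer1g* both encode adaptors with an activation motif in their tails, and on them depend many of the receptors described here.

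As differences, these genes lay close together. *Ptprc*, which encodes the CD45 phosphatase found on all leukocytes, averaged 2556 and 3515 counts, with a log2 ratio of 0.40 (interval 0.36 to 0.44). *Cd52* went from 816 to 1128 counts, a log2 ratio of 0.41 (0.33 to 0.48). *Laptm5* averaged 2278 and 3020 counts, with a ratio of 0.35 (0.30 to 0.39), and the tetraspanin gene *Cd53* had 726 and 981 and a ratio of 0.37 (0.29 to 0.45). The counting intervals of these 4 genes overlap, so their ratios were not distinguishable from each other at this depth. The adaptor genes lay lower. *Tyrobp* averaged 1124 and 1365 counts, giving a log2 ratio of 0.22 (0.15 to 0.29), and *Fcer1g* had 862 and 1091, a ratio of 0.28 (0.20 to 0.35). The interval of each ends under the one of *Ptprc*. *Cd300a*, an inhibitory receptor of myeloid and some lymphoid cells, had the highest ratio of the group, 0.61 (0.48 to 0.74), with mean counts of 251 and 400. *Spi1*, whose product PU.1 is the transcription factor that directs the myeloid lineage, had mean counts of 285 and 392 under its older symbol and a log2 ratio of 0.40 (0.27 to 0.53), inside the range of the group.

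**Figure D2:**
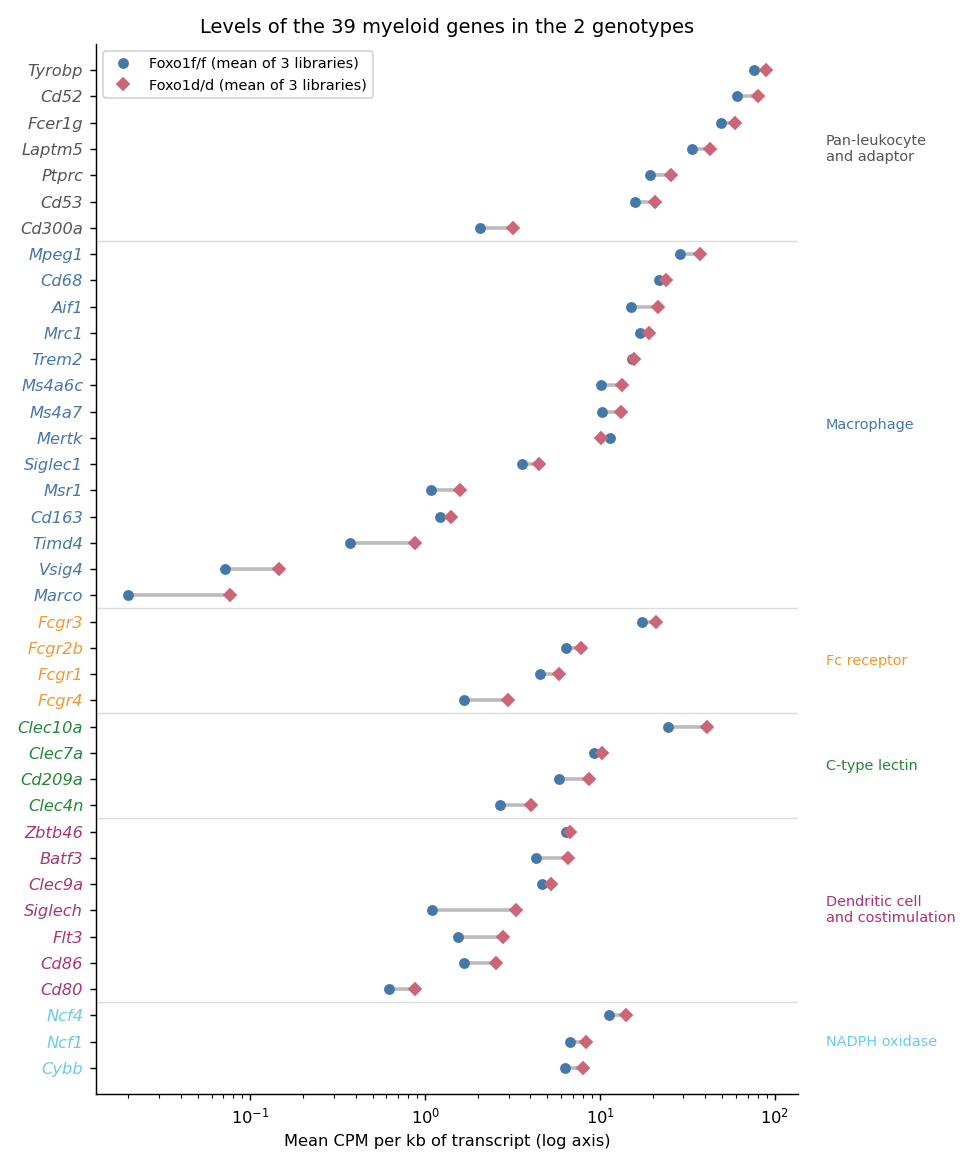
Level of each of the 39 genes in *Foxo1f/f* (circles) and *Foxo1d/d* (diamonds), in mean CPM per kilobase of transcript on a log axis, grouped by role. Each symbol is the authors' mean over 3 libraries, with no error bar because the spread between libraries was not available here. All genes but *Mertk* have the diamond to the right of the circle.

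Among genes used to recognise macrophages, the ratios covered a wider range. Of 14 such genes, 12 were measured, with a median log2 ratio of 0.33, and 7 were over 1.2-fold higher in *Foxo1d/d*. *Mpeg1*, the gene of a pore-forming protein of phagocytes, had the highest level of them, 28.6 and 37.3. Its mean counts were 3236 and 4411 and its log2 ratio was 0.39 (0.35 to 0.42), close to that of *Ptprc*. *Aif1*, which encodes the actin-binding protein IBA1, had mean counts of 346 and 513, levels of 15.1 and 21.5 and a ratio of 0.51 (0.39 to 0.62). The other genes with ratios over 1.2-fold were *Msr1* at 0.54, *Ms4a6c* at 0.40, *Ms4a7* at 0.34 and *Siglec1* at 0.32, and *Timd4*.

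*Timd4* encodes a receptor for phosphatidylserine on dying cells and marks long-lived resident macrophages in several tissues. It averaged 21.0 counts in control and 51.7 in knockout uteri, 2.36-fold more, and its log2 ratio was 1.198 (0.81 to 1.68). Its levels, 0.370 and 0.872, were the lowest of the 37 genes in both genotypes. A ratio second only to that of *Siglech* thus belonged to a gene with few counts, and its counting interval was the widest of the 37.

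Other macrophage genes hardly differed. *Cd68*, a lysosomal glycoprotein gene found in nearly all macrophages, had mean counts of 702 and 804, levels of 21.9 and 24.0 and a log2 ratio of 0.13 (0.05 to 0.22). The mannose receptor gene *Mrc1*, with mean counts of 2367 and 2800, had a ratio of 0.18 (0.14 to 0.23), and *Cd163*, the scavenger receptor gene for haemoglobin bound to haptoglobin, had 0.21 (0.02 to 0.40). The ratio of *Trem2*, a lipid-sensing receptor that signals through the product of *Tyrobp*, was 0.04, with an interval from -0.07 to 0.15 that includes 0. *Mertk*, a receptor tyrosine kinase for the uptake of dying cells, averaged 1282 and 1190 counts, with a log2 ratio of -0.17 (-0.23 to -0.10). *Timd4* and *Mertk* thus encode receptors with related tasks and lay at opposite ends of the macrophage genes. *Mertk*, like *Axl* at -0.30, is also expressed outside the myeloid lineage.

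The receptors for immunoglobulin G were all higher in *Foxo1d/d*, by unequal amounts. *Fcgr3*, a low-affinity activating receptor, was the most abundant of the 4, with levels of 17.5 and 20.9. Its mean counts were 616 and 767 and its log2 ratio was 0.26 (0.17 to 0.35). *Fcgr2b*, the inhibitory receptor, averaged 589 and 751 counts, with a ratio of 0.29 (0.20 to 0.38), and *Fcgr1*, the high-affinity receptor, 307 and 410 and a ratio of 0.35 (0.23 to 0.48). *Fcgr4*, an activating receptor of monocytes, macrophages and neutrophils, stood apart with mean counts of 54.7 and 102 and a ratio of 0.82 (0.56 to 1.12). Its interval does not overlap those of the other 3. The level of *Fcgr4*, 1.67 and 2.97, was the lowest of the 4. *Fcgr2b*, *Fcgr3*, *Fcgr4* and *Fcer1g* lie near each other on chromosome 1, and the low-affinity receptors are similar in sequence, so reads that fit more than a single gene make the split among them uncertain.

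Of the C-type lectins, which bind sugars on microbes and glycoproteins, *Clec10a* had both the highest level and the highest ratio. Its product binds galactose-type sugars and is found on macrophages and on a type of conventional dendritic cell. It averaged 957 counts in control and 1675 in knockout uteri, at levels of 24.5 and 41.1. The ratio was 0.74 (0.68 to 0.81), or 1.68-fold. With the sixth highest level of the list, this was the best covered of the genes over 1.5-fold. *Clec4n*, which encodes Dectin-2, averaged 86.0 and 135 counts, with a ratio of 0.58, at the 1.5-fold threshold, which it passes without a pseudocount but not with one of 1. *Cd209a*, a mouse relative of DC-SIGN, had 224 and 347 and a ratio of 0.57, while *Clec7a*, the gene of the beta-glucan receptor Dectin-1, had a ratio of 0.15 with an interval from -0.02 to 0.32. The lectins thus ranged from a clear excess over counting error to none detectable at this depth.

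Of 7 dendritic cell and costimulation genes, 4 were over 1.5-fold higher, but *Batf3* and *Cd86* lay so near the threshold that only 2 of 7 passed with ratios centred on the median gene. *Siglech*, a sialic acid binding lectin of plasmacytoid dendritic cells, had the highest ratio of all measured genes of the list. Counts of 66 and 207, at levels of 1.10 and 3.30, gave it a log2 ratio of 1.57 (1.35 to 1.82), or 3.00-fold. *Flt3*, the receptor for the growth factor on which dendritic cells depend, averaged 148 and 279 counts, with a ratio of 0.85 (0.69 to 1.02). These 2 genes had intervals above that of *Ptprc*, so they were higher than the general leukocyte gene by more than counting error.

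The genes of conventional dendritic cells did not all follow. *Batf3*, a transcription factor needed for the cross-presenting type, averaged 90.0 and 143 counts, with a log2 ratio of 0.60 (0.38 to 0.83). *Clec9a*, a receptor for dead cells on that same type, had 402 and 468 and a ratio of 0.16 (0.04 to 0.27). *Zbtb46*, a transcription factor of conventional dendritic cells that endothelium also expresses, had 430 and 474 and a ratio of 0.08, with an interval from -0.03 to 0.19. *Batf3* and *Clec9a*, which mark the same cell, therefore differed in ratio by more than their counting intervals. The costimulatory genes *Cd86* and *Cd80*, whose products engage CD28 on T cells, had ratios of 0.60 (0.41 to 0.81) and 0.48 (0.08 to 0.91). Mean counts were 110 and 175 for *Cd86* and 27.7 and 40.7 for *Cd80*.

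The 3 subunits of the phagocyte NADPH oxidase, the enzyme that makes superoxide in the phagosome, lay within a narrow range. *Cybb*, the catalytic subunit in the membrane, averaged 780 and 1034 counts, with a log2 ratio of 0.34 (0.27 to 0.42). The cytosolic subunits *Ncf4* and *Ncf1* had ratios of 0.32 (0.21 to 0.42) and 0.29 (0.19 to 0.39), with mean counts of 431 and 561 and of 487 and 622. Their intervals overlap each other and that of *Ptprc*. Among further genes of the complex and its proton supply, *Rac2*, mainly of blood cells, was over 1.2-fold higher, with a ratio of 0.38. *Cyba*, the most abundant of them, had 1756 and 1971 counts and a ratio of 0.11, and *Rac1* and *Hvcn1* lay at -0.03 and -0.12.

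**Figure D3:**
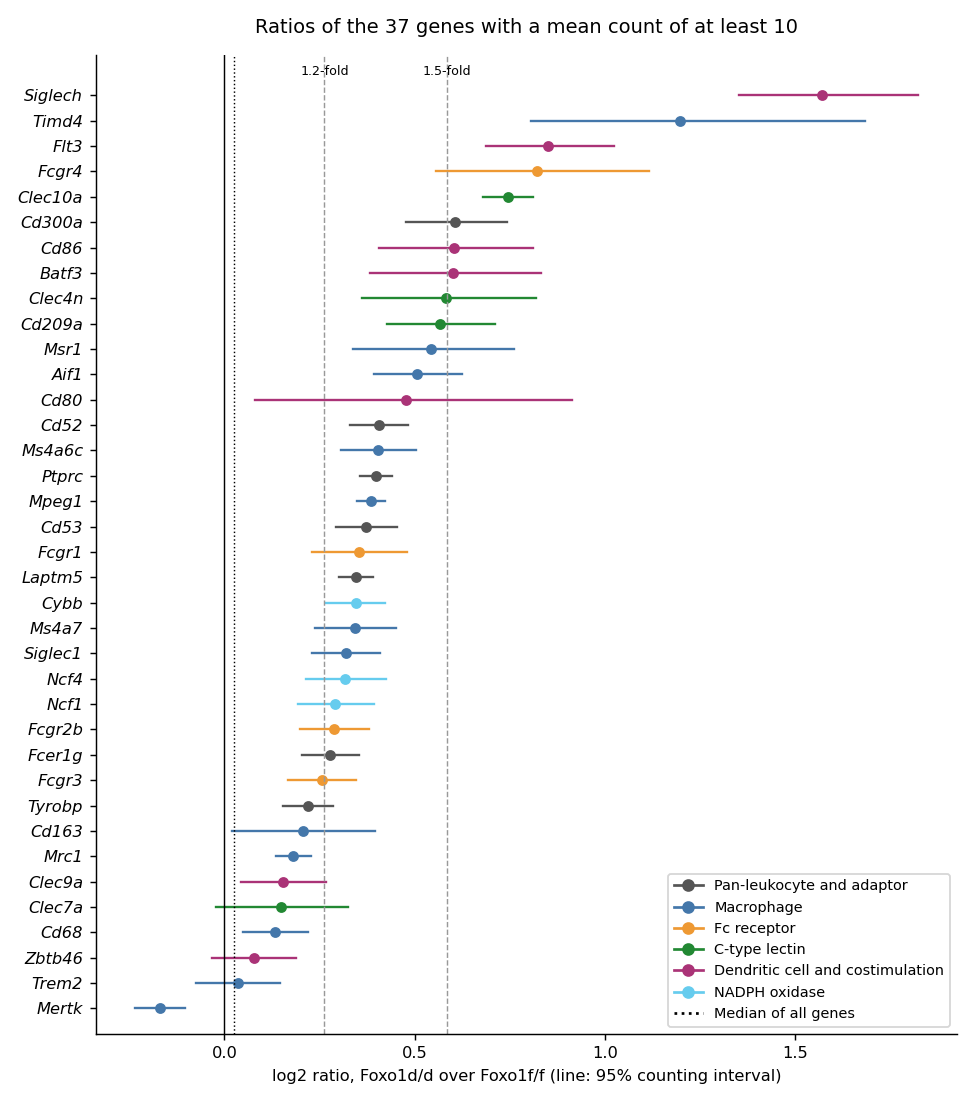
The log2 ratio (knockout over control) of the 37 genes that averaged at least 10 counts, coloured by role, with the 95% counting interval as a line. Solid, dotted and dashed vertical lines mark 0, the median of all genes at 0.02, and 1.2-fold and 1.5-fold. *Siglech* is highest at 1.57 and *Mertk* lowest at -0.17.

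The ratio of *Ptprc* offers a scale for the leukocytes as a whole. Of the 36 other measured genes, 20 had a counting interval that overlaps that of *Ptprc*, 6 lay above it and 10 below it. The 6 above were *Siglech*, *Timd4*, *Flt3*, *Fcgr4*, *Clec10a* and *Cd300a*. The 10 below were *Fcer1g*, *Fcgr3*, *Tyrobp*, *Mrc1*, *Clec9a*, *Clec7a*, *Cd68*, *Zbtb46*, *Trem2* and *Mertk*. Ratios centred on *Ptprc*, a scaling chosen after the data were seen, have a median of -0.04 over the 37 genes, with 5 over 1.2-fold higher and 4 over 1.2-fold lower. Relative to the general leukocyte gene the list was thus split, while relative to all counts it was higher. *Ptprc* is also a gene of T, B and natural killer cells, and the part of each cell type in its value was not tested.

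Other genes of the same cells gave similar medians. Of 33 measured macrophage genes outside the list, 19 were over 1.2-fold higher and 1, *Axl*, over 1.2-fold lower, with a median log2 ratio of 0.28. *Apoe*, the most abundant of them, which many other cells express, had 14561 and 16492 counts and a ratio of 0.12. Among those over 1.5-fold were the lectin genes *Cd209g* at 1.36 and *Cd209f* at 1.06, relatives of *Cd209a* with which they can share reads, and *Retnla* at 0.61. *Adgre1* had a ratio of 0.27 and *Csf1r* of 0.16, so the defining macrophage genes outside the list also lay below *Ptprc*.

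Of 19 measured dendritic cell genes outside the list, 13 were higher and 0 lower by over 1.2-fold, with a median of 0.47. *Ccr7* and *Ccl22*, a chemokine receptor and a chemokine of mature migrating dendritic cells, had ratios of 1.44 (0.85 to 2.33) and 1.37 (0.82 to 2.16), from mean counts of 7.33 and 22.7 and of 9 and 26. *Ly6d* had a ratio of 1.34 and *Bcl11a*, a transcription factor of plasmacytoid dendritic cells and lymphocytes, of 0.68. *Xcr1*, the chemokine receptor of the cross-presenting type, had 143 and 229 counts and a ratio of 0.61, nearer to *Batf3* than to *Clec9a*. *Itgae* at 0.66, which T cells also express, and *Kmo* at 0.60 completed the genes over 1.5-fold. *Bst2*, the most abundant, had 2553 and 3485 counts and a ratio of 0.39, while the plasmacytoid transcription factor gene *Tcf4*, widely expressed in other cells, had -0.25. Genes of plasmacytoid dendritic cells therefore gave no single value.

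Among 11 measured monocyte genes the median was 0.20, and 5 were over 1.2-fold higher. *Ly6c2*, which marks classical blood monocytes, averaged 42.7 and 140 counts, with a log2 ratio of 1.63 (1.37 to 1.95). *Treml4* had a ratio of 0.70. *Ccr2*, the receptor that brings monocytes out of the bone marrow, had 0.42, and *Plac8*, the most abundant of the list per length, 0.05. The signalling partners of the receptors, 16 genes downstream of the activation motif, had a median of 0.30. Of these, 9 were over 1.2-fold higher, led by the kinase gene *Fgr* at 0.67, and the phosphatase gene *Ptpn6*, the most abundant, had 0.32. *Blnk*, the adaptor of B cell receptor signalling, had 578 and 359 counts and a ratio of -0.75.

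The growth factors and chemokines that act on these cells differed in both directions, with 5 of 9 higher and 2 lower by over 1.2-fold and a median of 0.44. *Il34*, a ligand of CSF1R, averaged 164 and 79.3 counts, with a log2 ratio of -1.10 (-1.34 to -0.88), and *Csf1*, the other ligand, a ratio of -0.32. The ratio of *Flt3l*, which encodes the ligand of FLT3, was -0.18. Both ligands of CSF1R and the ligand of FLT3 were thus lower while *Csf1r* and *Flt3* themselves were higher. *Csf3*, the neutrophil growth factor, had 65.0 and 278 counts and a ratio of 2.02 (1.81 to 2.27), and the monocyte chemokine genes *Ccl7*, *Ccl12*, *Ccl8* and *Ccl2* had ratios of 0.94, 0.49, 0.49 and 0.44. *Ccl8*, with 1758 and 2568 counts, was the most abundant. *Cx3cl1* lay at 0.08.

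Markers of other leukocytes and of blood were higher in *Foxo1d/d* as well. All 13 measured T cell genes had ratios above 0 and 9 were over 1.5-fold higher, with a median log2 ratio of 0.80 and a summed level of 51.3 and 83.8 CPM. *Lck* was the most abundant, with a ratio of 0.45, and *Cd8a*, with 30.0 and 123 counts, had the highest ratio, 1.94. The others over 1.5-fold were *Cd8b1* at 1.59, *Cd6* at 1.46, *Cd3d* at 1.37, *Cd5* and *Cd3e* at 1.09, *Cd3g* and *Cd4* at 0.80 and *Cd28* at 0.79. Of 13 natural killer cell genes, 9 were over 1.2-fold higher, with a median of 0.31 and a summed level of 215 and 270. *Klrc1* at 0.96, *Gzma*, the most abundant, at 0.72 and *Tbx21* at 0.68 passed 1.5-fold, and *Klra4* was at 0 in both genotypes. Of 7 B and plasma cell genes, 5 were over 1.2-fold higher, with a median of 0.55. *Jchain*, the joining chain of secreted antibodies and the most abundant of them, had 470 and 2092 counts and a ratio of 2.09. *Cd79b* had 0.76, and the summed level, 27.3 and 89.9, was 9.34 and 13.2 without *Jchain*.

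Of 19 further genes shared by most leukocytes, 17 were over 1.2-fold higher, with a median of 0.45 and a summed level of 648 and 855 CPM. *Dock2*, with 287 and 663 counts, had a ratio of 1.14 (1.03 to 1.26), *Cytip* 0.71, *Ikzf1* and *Cd37* 0.63, and the most abundant, *Coro1a*, 0.49. The excess in *Foxo1d/d* was therefore not limited to myeloid genes, and how much of the ratio of a shared gene such as *Ptprc* came from lymphocytes was not tested.

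Granulocyte lists were led by single genes. Of 9 measured neutrophil genes, 8 were over 1.2-fold higher, with a median of 0.90, and the summed level was 42.7 and 97.0 CPM, or 21.3 and 27.9 without *Ltf*, which uterine epithelium also expresses. *Ltf*, the most abundant, had a ratio of 1.69. *Fpr1* had 2.01, *Fpr2* 1.41, *S100a9* 1.19 and *Mpo* 0.90, all from few counts, and *Elane* was at 0 in *Foxo1f/f* and at 1.00 in *Foxo1d/d*. Of 5 eosinophil genes the median was 0.23. Their most abundant gene, *Alox15*, which other uterine cells express, had a ratio of 1.32, *Prg2* had -0.69, and the summed level was 206 and 511, or 3.28 and 3.46 without *Alox15*. *Ear2* was at 0 in both genotypes. Mast cell genes went the other way, with a median of -0.43 and 8 of 10 over 1.2-fold lower. *Fcer1a*, from 20.3 and 9 counts, lay at -1.15, while *Hdc*, their most abundant gene, which epithelium also expresses, had 1.27. *Gata2*, which other uterine cells express as well, averaged 3591 and 4828 counts, with a ratio of 0.37. The summed level was 417 and 636 for the 10 genes and 129 and 95.1 for the 8 lower ones, without *Hdc* and *Gata2*.

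Red cell genes, a sign of blood in the tissue, were higher in *Foxo1d/d*. The beta globin gene *Hbb-bs*, listed under its older symbol, averaged 1087 and 2528 counts, with a log2 ratio of 1.16 (1.10 to 1.22). *Alas2*, the haem synthesis enzyme of red cell precursors, had 147 and 403 and a ratio of 1.39 (1.24 to 1.56), and the summed level of the 8 genes found was 47.4 and 108 CPM. *Hba-a1*, *Hba-a2*, *Hbb-b1* and *Hbb-b2* are listed at 0 in both genotypes, and globin genes have near-identical copies that can share reads. Blood also carries leukocytes, and the part of blood in the ratios of the 39 genes was not tested.

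The tissue compartments did not shift alike. Endothelial genes had a median of -0.19, with *Pecam1*, the most abundant, at -0.22. Smooth muscle genes had -0.26, with *Tagln* at -0.27, and stromal genes -0.05, with *Col3a1* at -0.05. Epithelial genes had a median of 0.29, led by *Krt19* at 1.22 and *Elf3* at 0.86, with the most abundant gene, *Cldn3*, at 0.41. Summed over the list, CPM were 937 and 1130 for epithelium, 2560 and 2237 for endothelium, 8895 and 7471 for smooth muscle and 15391 and 15349 for stroma. The shares of tissue that the counts came from were thus not the same in the 2 genotypes, and their part in the ratios of the myeloid genes was not tested.

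**Figure D4:**
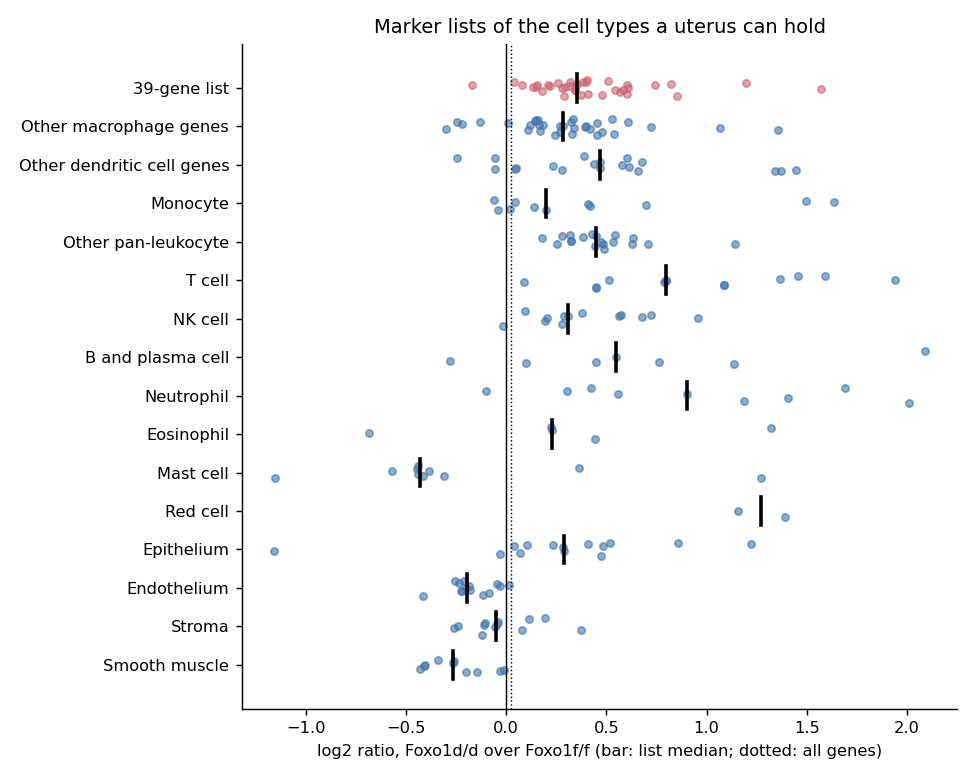
Log2 ratios (knockout over control) by marker list, each point a gene that averaged at least 10 counts, each bar the median of the list, and the dotted line the median of all genes. The list described here (red) has its median at 0.35, beside 0.80 for T cells, 0.90 for neutrophils, 1.27 for the 2 measured red cell genes and -0.43 for mast cells.

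Since the genes shifted together, the sequence before their start sites was searched for motifs. RefSeq (GRCm38.p6) gave 250 bases before the start for 31 of the 39 genes and for 27025 genes in all. Genes without an entry were *Cd52*, *Cd86*, *Clec10a*, *Clec4n*, *Msr1*, *Ncf4*, *Siglec1* and *Tyrobp*. Searched on both strands, a long form of the motif bound by PU.1, GAGGAAGT, was in the window of 1 of the 31 genes, *Fcgr4* (3.23%, against 2.79% of all genes). Its core, the PU box GAGGAA, was searched after that result was seen. It was found for 15 of the 31 genes (48.4%), against 25.9% of all genes with an entry, and in 48.6% of the 35 windows of the list, against 23.3% of 32851 windows. Every match to the long form also holds the core.

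The windows shown are those in which the PU box lies within 100 bases of a start at the outer end of the gene, to let the sequences around it be compared, and each ends at least 10 bases before the start. Capitals mark the box, as GAGGAA or, where it lies on the other strand, as TTCCTC, and each window is written 5′ to 3′ on the strand of the gene. *Cd53* (chr3:106790160-106790214, minus strand), *Clec7a* (chr6:129472844-129472901, minus), *Fcgr1* (chr3:96293993-96294050, minus), *Fcgr4* (chr1:171018878-171018915, plus), *Mrc1* (chr2:14229353-14229403, plus), *Trem2* (chr17:48346335-48346390, plus) and *Vsig4* (chrX:96293460-96293517, minus) gave these 7 windows.
Cd53: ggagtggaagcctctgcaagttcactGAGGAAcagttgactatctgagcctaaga
Clec7a: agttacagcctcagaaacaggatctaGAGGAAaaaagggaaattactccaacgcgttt
Fcgr1: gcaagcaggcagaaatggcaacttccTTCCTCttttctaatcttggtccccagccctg
Fcgr4: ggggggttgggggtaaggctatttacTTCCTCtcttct
Mrc1: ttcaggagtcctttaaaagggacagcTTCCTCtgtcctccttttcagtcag
Trem2: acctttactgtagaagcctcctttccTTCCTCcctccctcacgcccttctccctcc
Vsig4: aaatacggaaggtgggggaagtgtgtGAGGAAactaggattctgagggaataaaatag

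The presence of the box did not sort the genes by ratio. The 13 measured genes with a box had a median log2 ratio of 0.35 and ranged from 0.04 for *Trem2* to 0.82 for *Fcgr4*. The 16 with an entry and no box had a median of 0.34 and ranged from -0.17 for *Mertk* to 1.57 for *Siglech*. A forkhead motif, GTAAACA, of the kind that FOXO proteins bind and which does not contain the PU box, was found for 0 of the 31 genes and for 3.54% of all genes, which says only that these letters are not in the 250 bases searched. A match is a string of letters and shows no binding.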

How the data were processed

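Uterine RNA of 6 pools was sequenced from TruSeq libraries. The authors trimmed the 5′ ends of paired reads, mapped them with STAR to RefSeq genes, removed duplicates with Picard, counted reads per gene with HTSeq and compared genotypes with edgeR. The study's methods name mm10 as the build and the submitters' processing notes mm9. Versions and the strand setting are not given in the sources used here. The deposited values are mean raw counts per genotype, of the expected count kind because a mean need not be whole. Multiplied by 3, they are whole to within 1e-09. The table also holds the authors' fold change, log2 CPM, p-value and FDR, which were not used. Counts of single libraries were not analysed here, so the edgeR quasi-likelihood test planned for them was not run.

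Counts summed to 78375043 in control and 81773890 in knockout libraries. Log2 ratios used means plus a pseudocount of 1, then divided by the totals. Folds of single genes were taken without it. Genes needed a mean count of at least 10 (15696 of 23420). A gene was called at 1.5-fold or 1.2-fold. Levels used the longest GENCODE transcript matched to a curated RefSeq mRNA. The lists of the other cell types were matched by symbol or a RefSeq synonym. The text names every gene of the list and gives in full those over 1.5-fold and the 10 with the highest level per length. Of the other lists it names the genes over 1.5-fold and the most abundant gene per length. Further genes were named after their values were seen. The members and lists were chosen with earlier results of these data known. Alternatives were other pseudocounts, scalings, filters and thresholds, and leaving out close paralogs. The steps were tested on simulated data. Python 3.11.15, numpy 2.4.6, pandas 2.3.3, scipy 1.17.1 and matplotlib 3.10.9 were used.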

Additional observations from a re-analysis of the deposited data

How the results depend on the processing

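No paired analysis was possible because the deposited table holds only the mean of each genotype, and for the same reason no library could be left out in turn. The median log2 ratio of the 37 measured genes stayed between 0.33 and 0.37 under the 7 alternatives fixed for it, and no gene was over 1.5-fold or 1.2-fold lower under any of them. The number over 1.5-fold higher, 8, was 9 and 6 with pseudocounts of 0.1 and 10, 5 with ratios centred on the median gene and 5 of 26 without close paralogs, and it was 22 at a threshold between 1.2-fold and 1.5-fold and 2 at 2-fold. Several genes lie near the 1.5-fold line, and leaving out genes lowers a count by itself. The number over 1.2-fold higher, 27, was 17 of 26 without close paralogs. Of alternatives chosen after seeing the data, adding *Spi1* or leaving out the genes that other leukocytes share moved the median to 0.36 and 0.35. Centring on *Ptprc* turned the median to -0.0448 and left 2 genes over 1.5-fold higher, 5 over 1.2-fold higher and 4 over 1.2-fold lower, which follows from *Ptprc* lying at 0.40 itself. The log2 ratios of the 39 genes stayed within their counting intervals under all 4 alternatives tried for single genes (156 of 156 values). Depth limits *Marco*, *Vsig4*, *Cd80* and *Timd4* most, and since the mean counts carry no spread between pools, none of the ratios was set against the variation between mice.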
